A study of Mus musculus with 4 samples.

Results

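The ligands of the epidermal growth factor (EGF) family and the ERBB receptors that bind them were followed in the small intestine (SI) of irradiated mice. The members are the ligands Egf, Areg, Ereg, Tgfa, Hbegf, Btc and Nrg1 and the receptors Egfr, Erbb2 and Erbb3, taken as the rows of the deposited count table that carry these 10 gene names, among 56748 genes in all. The names match 11 rows, because Nrg1 appears on a further row (ENSMUSG00000118541) with 0 counts in every library. The other 10 rows passed the filter on low counts, so each member was tested through 1 row. SI RNA came from p53+/+ mice, labelled WT, and from p53-/- mice. The study's methods list them as separate stocks of the same supplier and do not say whether they were littermates. A difference between stocks therefore cannot be told apart from one of p53. All mice received 12 Gy total body irradiation (TBI) from a Cs-137 source and were sampled 1 day later. There were 2 libraries per genotype, called 7 and 8 for p53+/+ and 9 and 10 for p53-/- after the columns of the table. No library came from a non-irradiated mouse, so every difference below is between genotypes after irradiation and none is a response to irradiation. The p53 loss is germline and covers all cells, and the RNA is poly-A RNA of whole tissue, in which fewer cells of a type and less RNA per cell cannot be told apart.

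EGF family ligands are made as membrane-bound precursors, and proteases of the ADAM family release them from the cell surface. Egf, Areg, Ereg, Tgfa, Hbegf and Btc bind EGFR, whereas Nrg1 binds ERBB3, and some ligands also use ERBB4. ERBB2 has no known ligand and ERBB3 has a weak kinase, so both act as partners in receptor dimers. Bound receptors signal through the RAS-ERK and PI3K pathways, and in the intestinal crypt EGF receptor signalling is known to drive proliferation of stem and progenitor cells. EGF is a standard component of the medium in which intestinal organoids are grown.

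Library totals ran from 15005479 to 22173164 counts. Trp53 itself had 933 and 726 counts in libraries 7 and 8 and 452 and 453 in libraries 9 and 10, so the p53-/- libraries still held reads on the gene (adjusted p = 0.0602, quasi-likelihood test in edgeR). Its target Cdkn1a, which encodes the cell cycle inhibitor p21, had 10016 and 9862 counts against 5035 and 4945 (adjusted p = 0.0592). Trp53 and 10 of its known targets all had both p53-/- libraries below both p53+/+ libraries, against 24.4% of all tested genes, and 6 of the targets passed the test, against 0.193%. The 2 libraries of each genotype also differed from each other, and neither can be taken as the typical one. Library 8 carried 4495 CPM (gene counts divided by TMM-adjusted library totals) of 6 smooth muscle markers, against 481 in library 7, 995 in library 9 and 699 in library 10. Library 10 carried 431 CPM of 6 B cell markers, against 1.11 to 21.8 in the others, and 4.59% of its counts lay on an 18S ribosomal RNA row, against 0.296% to 0.863%. Library 7 was in turn the lowest in 5 endothelial markers, at 19.8 CPM against 57.7 to 70.4 in the others. The members are therefore given library by library, with their range when each library was left out.

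Areg, the gene of amphiregulin (ENSMUSG00000029378), had 1085 counts in library 7 and 3131 in library 8, both p53+/+, against 163 in library 9 and 234 in library 10, both p53-/-. These are 67.1, 203, 7.14 and 11.6 CPM. Both p53+/+ libraries lay far above both p53-/- libraries, although they differed from each other by 3.03-fold. The means were 135 ± 96.2 CPM in p53+/+ and 9.39 ± 3.18 in p53-/- (SD, n = 2 each). The level was 14.4-fold lower in p53-/- (95% interval 5.04 to 41.2), a log2 fold change of -3.85 with a standard error (SE) of 0.60. With edgeR's quasi-likelihood test and Benjamini-Hochberg adjustment over all 16094 tested genes the adjusted p was 0.0740, which misses the threshold of 0.05, while DESeq2 gave an adjusted p of 1.80e-11. Over all alternative settings the adjusted p ran from 9.25e-56 to 0.473.

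Ereg, the gene of epiregulin (ENSMUSG00000029377), had 1387 and 3229 counts in libraries 7 and 8 and 413 and 375 in libraries 9 and 10. On the CPM scale these were 85.8, 209.5, 18.1 and 18.7. The p53-/- libraries were close to each other and both lay below the p53+/+ libraries, of which library 8 was again the higher. The means were 148 ± 87.4 CPM in p53+/+ and 18.4 ± 0.390 in p53-/-. The level was 8.03-fold lower in p53-/- (95% interval 3.70 to 17.4), a log2 fold change of -3.01 (SE 0.45). The adjusted p was 0.0637 by the quasi-likelihood test and 1.96e-10 by DESeq2, and it ran from 2.04e-36 to 0.533 over the alternatives. Of the 10 members Ereg had the smallest p, and it stood 192nd among all tested genes, with Areg 221st. Of the tested genes, 0.323% had a log2 fold change as low as that of Ereg or lower, and 0.18% one as low as that of Areg.

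**Figure D1:**
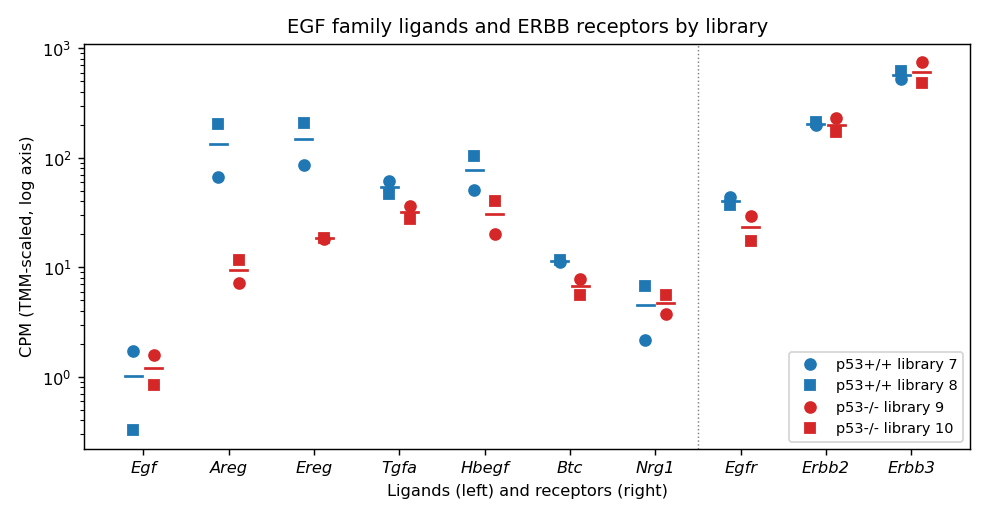
Level of the 10 members in each library, in CPM on a log axis, with 1 point per library and a bar at the mean of each genotype. Areg and Ereg show the widest gap between the genotypes, the p53+/+ libraries at 67.1 to 209.5 CPM and the p53-/- libraries at 7.14 to 18.7, while Egf, Nrg1, Erbb2 and Erbb3 overlap.

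Without library 8, the library rich in smooth muscle, the log2 fold change of Areg was -2.85 (adjusted p = 0.0101) and that of Ereg -2.23 (adjusted p = 0.00470). Without library 7 they were -4.43 (adjusted p = 0.00287) and -3.50 (adjusted p = 0.00182). Both genes thus passed the quasi-likelihood test when either p53+/+ library was left out, but so did many others, since the calls over all genes went from 79 to 1024 without library 8 and to 644 without library 7. Without library 9 the values were -3.54 (adjusted p = 0.158) and -2.99 (adjusted p = 0.147), and without library 10 they were -4.20 (adjusted p = 0.473) and -2.99 (adjusted p = 0.533). Without library 10 the test called 0 genes of the whole table, with 1201 at an unadjusted p under 0.05, so the calls on these genes depended on the library left out while the direction did not.

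In the RefSeq annotation of mouse, Ereg and Areg lie next to each other on chromosome 5. The protein-coding genes there follow in the order Mthfd2l, Epgn, Ereg, Areg, Btc and Parm1. The outer neighbours, named here for their position, had higher values in both p53-/- libraries than in both p53+/+ libraries. This held for 26.4% of all tested genes, and neither neighbour passed the quasi-likelihood test. Mthfd2l, an enzyme of mitochondrial folate metabolism, was at 6.25, 6.49, 8.06 and 7.51 CPM in libraries 7 to 10 (log2 fold change 0.29, adjusted p = 0.703). Parm1 was at 33.0, 45.9, 49.9 and 47.6 CPM (log2 fold change 0.30, adjusted p = 0.511). Epgn, the gene of the ligand epigen, had 2, 4, 5 and 4 counts and was not tested. In this row of genes the lower levels in p53-/- were thus those of Ereg, Areg and, by a smaller amount, Btc. An antisense gene, Gm19610, shares 141 exonic bases with Ereg in GENCODE M21 and had 68, 44, 22 and 23 counts. The strand used in counting is not given in the sources used here, so reads in the shared bases cannot be assigned to either gene.

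The 250 bases upstream of the RefSeq start are shown for the ligands Areg, Tgfa and Btc, to set the ligand with the largest difference between genotypes beside 2 ligands with smaller differences in the same direction. The RefSeq promoter table (GRCm38.p6) holds 6 of the 10 members. Capitals mark a cyclic AMP response element (CRE, TGACGTCA) and a TATA box (TATAAA). The Areg window is chr5:91139349-91139598 on the plus strand, the Tgfa window chr6:86194972-86195221 on the plus strand and the Btc window chr5:91402995-91403244 on the minus strand.
Areg: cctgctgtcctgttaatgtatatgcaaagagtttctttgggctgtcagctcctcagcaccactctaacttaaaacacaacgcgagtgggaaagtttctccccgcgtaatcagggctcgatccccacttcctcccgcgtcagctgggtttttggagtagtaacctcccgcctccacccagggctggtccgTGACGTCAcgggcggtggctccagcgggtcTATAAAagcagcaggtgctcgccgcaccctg
Tgfa: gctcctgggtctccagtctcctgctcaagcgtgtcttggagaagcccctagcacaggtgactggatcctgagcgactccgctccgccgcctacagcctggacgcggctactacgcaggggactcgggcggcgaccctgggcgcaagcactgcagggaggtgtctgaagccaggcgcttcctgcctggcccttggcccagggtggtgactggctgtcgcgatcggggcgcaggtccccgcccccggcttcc
Btc: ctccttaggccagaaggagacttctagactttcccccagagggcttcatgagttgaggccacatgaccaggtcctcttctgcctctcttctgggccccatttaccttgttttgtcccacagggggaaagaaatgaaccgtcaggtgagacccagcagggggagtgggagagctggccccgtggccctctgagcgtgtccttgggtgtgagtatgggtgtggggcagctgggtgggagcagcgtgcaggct

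Each window was searched on both strands for the CRE TGACGTCA, the AP-1 site TGANTCA, the SP1 box GGGCGG, the TATA box TATAAA, the TEAD site GGAATG and the p53 decamer. The Areg window holds 1 CRE, 1 SP1 box and 1 TATA box, the Tgfa window 2 SP1 boxes, and the Btc window none of these motifs. Of 32851 promoter windows of the same length, 1.55% hold the CRE, 12.4% the TATA box, 32.7% the SP1 box, 6.75% the AP-1 site, 12.6% the TEAD site and 7.13% the p53 decamer. The p53 decamer was matched in 1 of 2 windows of Egf and in no window of Areg, Tgfa, Btc, Egfr or Erbb2. A match in these letters is a description of the window and says nothing of binding.

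Hbegf, the gene of heparin-binding EGF-like growth factor (ENSMUSG00000024486), reached 50.4 CPM in library 7 and 104 in library 8, against 20.1 in library 9 and 40.7 in library 10. The genotypes did not overlap, but library 7 and library 10 were near each other, and within a genotype the higher library exceeded the lower by 2.06-fold in p53+/+ and 2.03-fold in p53-/-. The means were 77.2 ± 37.8 CPM and 30.4 ± 14.6, a log2 fold change of -1.34 (SE 0.47, 95% interval -2.52 to -0.17). By the quasi-likelihood test the adjusted p was 0.231, and by DESeq2 it was 0.0406. Its size depended on the libraries used, with a log2 fold change of -1.77 without library 7, -0.74 without library 8, -0.93 without library 9 and -1.90 without library 10.

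Tgfa, the gene of transforming growth factor alpha (ENSMUSG00000029999), was at 61.1, 46.8, 36.6 and 27.5 CPM in libraries 7 to 10. Here library 7, not library 8, was the highest, and both p53-/- libraries lay below both p53+/+ libraries. The means were 53.9 ± 10.1 CPM in p53+/+ and 32.0 ± 6.49 in p53-/-, a log2 fold change of -0.75 (SE 0.22, 95% interval -1.31 to -0.19). The adjusted p was 0.186 by the quasi-likelihood test and 0.0760 by DESeq2. Btc, the gene of betacellulin (ENSMUSG00000082361), was at 11.1, 11.7, 7.80 and 5.62 CPM. Its p53+/+ libraries were nearly equal and both p53-/- libraries were lower, with a log2 fold change of -0.76 (SE 0.32, 95% interval -1.57 to 0.04) and an adjusted p of 0.299 by the quasi-likelihood test and 0.280 by DESeq2. Tgfa and Btc therefore had lower values in p53-/- by similar amounts, of which neither passed either test. Without libraries 7, 8, 9 and 10 in turn the log2 fold change of Tgfa was -0.54, -0.94, -0.98 and -0.50, and that of Btc was -0.79, -0.73, -1.03 and -0.50.

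Nrg1, the gene of neuregulin 1 (ENSMUSG00000062991), had 35 and 105 counts in libraries 7 and 8 and 86 and 113 in libraries 9 and 10, or 2.17, 6.81, 3.77 and 5.62 CPM. Library 7 was the lowest and library 8 the highest, so the genotypes overlapped. The log2 fold change was 0.06 with an interval from -1.51 to 1.64 (adjusted p = 0.973, quasi-likelihood test). Egf (ENSMUSG00000028017) had 28, 5, 36 and 17 counts, the fewest of all members. Its log2 fold change was 0.23 with an interval from -1.96 to 2.43 (adjusted p = 0.926), so changes within those bounds in either direction are not excluded. Without a library the value ran from -0.53 to 1.11 for Nrg1 and from -0.51 to 1.90 for Egf, and no direction is given for either gene.

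Among the receptors Egfr (ENSMUSG00000020122) reached 43.8 CPM in library 7 and 37.0 in library 8, against 29.2 in library 9 and 17.4 in library 10. Both p53-/- libraries were lower, and library 10 was the lowest. The means were 40.4 ± 4.79 and 23.3 ± 8.40 CPM, a log2 fold change of -0.79 (SE 0.29, 95% interval -1.51 to -0.07). The adjusted p was 0.247 by the quasi-likelihood test and 0.148 by DESeq2, and the log2 fold change was -0.65, -0.91, -1.22 and -0.41 without libraries 7, 8, 9 and 10 in turn.

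Erbb2 (ENSMUSG00000062312) was at 199, 211, 229.7 and 173 CPM in libraries 7 to 10, with the p53-/- libraries on either side of the p53+/+ libraries. Its log2 fold change was -0.02 (SE 0.21, 95% interval -0.55 to 0.50, adjusted p = 0.972, quasi-likelihood test). Erbb3 (ENSMUSG00000018166) was at 522, 621, 745 and 480.1 CPM, again with library 9 the highest and library 10 the lowest. Its log2 fold change was 0.10 (SE 0.29, 95% interval -0.63 to 0.83, adjusted p = 0.904). For both genes the genotypes overlapped, and the intervals do not reach a difference as large as that of Ereg or Areg. They do not show that the levels were equal, and without each library the value ran from -0.24 to 0.22 for Erbb2 and from -0.26 to 0.43 for Erbb3.

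**Figure D2:**
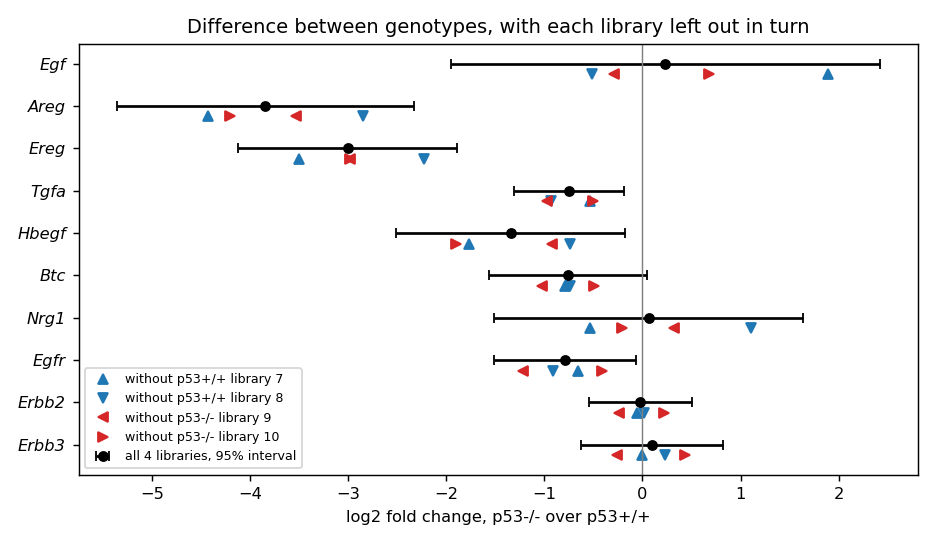
Log2 fold change of the 10 members, p53-/- over p53+/+, with 95% intervals from the quasi-likelihood fit, 2 libraries per genotype. The intervals of Areg (-5.36 to -2.33) and Ereg (-4.12 to -1.89) lie farthest below 0, and those of Btc, Egf, Nrg1, Erbb2 and Erbb3 cross 0.

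Counted together, 0 of the 10 members passed the quasi-likelihood test in either direction, where 0.491% of all tested genes did, 0.298% higher and 0.193% lower in p53-/-. At an unadjusted p under 0.05 there were 5 members lower in p53-/- (Areg, Ereg, Hbegf, Tgfa and Egfr) and 0 higher, where 7.92% of all tested genes were lower and 10% higher. DESeq2 called 3 members lower (Areg, Ereg and Hbegf) and 0 higher, where it called 9.16% of all tested genes, 4.12% lower and 5.05% higher. Both p53-/- libraries lay below both p53+/+ libraries in 6 members, the same 5 and Btc, against 24.4% of all tested genes, and above them in 0 members, against 26.4%. The median log2 fold change was -0.76 over the members and -0.01 over all tested genes. The members were chosen with earlier results of these data known, so these counts are a description and not a test against those shares.

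Levels of different genes were compared per length, as TPM, in which counts over summed exon length are scaled to the same total in each library. TPM does not use the TMM factors, so ratios between libraries differ from those in CPM. Egfr, for example, was at 9.43 and 9.40 TPM in libraries 7 and 8 but at 43.8 and 37.0 CPM. In p53+/+ the order from high to low was Areg (308 ± 245 TPM), Erbb3 (255 ± 60.3), Erbb2 (105 ± 16.4), Ereg (98.4 ± 67.4), Hbegf (43.7 ± 25.8), Tgfa (21.9 ± 1.57), Egfr (9.42 ± 0.0188), Btc (6.73 ± 1.01), Nrg1 (1.203 ± 0.979) and Egf (0.229 ± 0.207), each as mean and SD of 2 libraries. The pairs Areg and Erbb3, Erbb2 and Ereg, and Ereg and Hbegf were not separated by their libraries. In p53-/- the order was Erbb3 (266 ± 93.5 TPM), Erbb2 (101 ± 24.7), Areg (19.9 ± 5.82), Hbegf (16.1 ± 7.05), Tgfa (12.9 ± 3.21), Ereg (11.5 ± 0.312), Egfr (5.38 ± 2.18), Btc (3.87 ± 1.07), Nrg1 (1.17 ± 0.271) and Egf (0.282 ± 0.133). There Areg, Hbegf, Tgfa and Ereg formed a run of neighbours that were not separated, and Egfr and Btc overlapped as well. Of the 3 receptors among the members, the transcripts of Erbb3 and Erbb2 were thus the more abundant in both genotypes and Egfr the least.

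The summed level of the 7 ligands was 241 and 719.6 TPM in the p53+/+ libraries 7 and 8 and 59.8 and 71.7 TPM in the p53-/- libraries 9 and 10. Areg and Ereg together made up 186 and 628 TPM of these sums in p53+/+ and 27.5 and 35.3 TPM in p53-/-. The sum of the 3 receptors was 315 and 423 TPM against 457 and 287, so the receptor sums overlapped between genotypes whereas the ligand sums did not. As a share of the ligand sum, Areg took 56.0% and 66.9% in p53+/+ and 26.4% and 33.5% in p53-/-. The share of Ereg stayed nearer, at 20.7% ± 0.533 in p53+/+ and 17.7% ± 2.74 in p53-/-. Hbegf held 9.59% ± 1.39 and 24.0% ± 7.65, and Tgfa 6.21% ± 4.70 and 20.1% ± 7.45. A share of a sum rises when another member is lower, and the levels of Hbegf and Tgfa themselves were lower in both p53-/- libraries. No test was run on the shares.

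**Figure D3:**
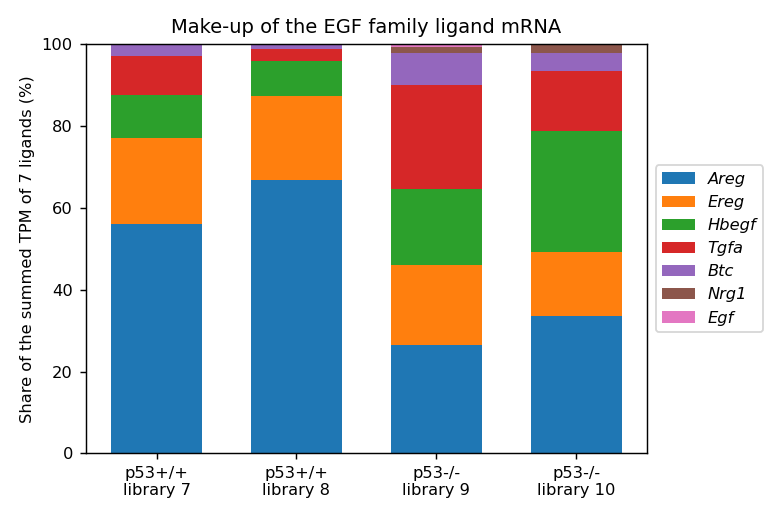
Share of each of the 7 ligands in the summed ligand TPM, in percent, with 1 bar per library. Areg and Ereg together account for 77.04% and 87.2% in the p53+/+ libraries and for 46.0% and 49.3% in the p53-/- libraries, with Hbegf and Tgfa taking most of the rest.

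Across the 4 libraries, the pattern of Ereg, the member with the smallest p, was compared with that of 13999 protein-coding genes by the mean absolute difference of centred log2 CPM. The nearest was Plk2, a polo-like kinase, with a difference of 0.105. Plk2 was at 39.4, 74.2, 7.06 and 7.51 CPM in libraries 7 to 10, with a log2 fold change of -2.96 (adjusted p = 0.0494, quasi-likelihood test). Hmgcll1 (0.227) and Cdh3 (0.228), the gene of P-cadherin, followed, and Areg was the 12th nearest with 0.401. This likeness over 4 libraries is a description, since any gene that is low in both p53-/- libraries and higher in library 8 than in library 7 will score well.

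Cell type markers moved with both the genotype and single libraries, and their part in the levels of the ligands was not tested. The p53+/+ library 8, in which Areg, Ereg, Hbegf and Nrg1 were all at their highest, was also the highest in markers of smooth muscle, of fibroblasts and telocytes (815 CPM summed over 9 genes, against 130 in library 7, 516 in library 9 and 520 in library 10) and of enteric glia (16.8 CPM against 2.23, 3.02 and 2.89). Library 7 had less of all 3 marker sums than either p53-/- library, and its levels of Areg, Ereg and Hbegf were above those of libraries 9 and 10. Macrophage markers, 59.8 and 173 CPM in p53+/+ and 217 and 296 CPM in p53-/-, and T cell markers, 7.55 and 14.5 against 64.8 and 123 CPM, were higher in the p53-/- libraries, where Areg was low. All 8 T cell markers had both p53-/- libraries above both p53+/+ libraries, against 26.4% of all tested genes. By the quasi-likelihood test 0 of the 8 passed, with 8 higher at an unadjusted p under 0.05, against 10%, and 8 called higher by DESeq2, against 5.05%. Of the 8 macrophage markers 7 were higher in both p53-/- libraries, against 26.4% of all tested genes. The quasi-likelihood test and DESeq2 each called 0 of them higher, against 0.298% and 5.05%. In their sum library 8 was nearer to library 9 than to library 7.

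Epithelial markers differed too. The 9 enterocyte markers summed to 18871 and 15943 CPM in p53+/+ and 11757 and 10707 CPM in p53-/-. Of them, 5 were lower in both p53-/- libraries, against 24.4% of all tested genes. The quasi-likelihood test called 0 and DESeq2 called 3 lower, against 0.193% and 4.12%. The 7 stem cell markers summed to 280 and 214 CPM against 697 and 711, and the difference lay in Olfm4, which was at 47.6, 16.0, 473 and 525 CPM (adjusted p = 0.0587). The other 6 markers summed to 233, 198 and 223 CPM in libraries 7, 8 and 9 and to 185 CPM in library 10. They went both ways, and all but Axin2 are named after their values were seen. Lgr5, Smoc2 and Znrf3 were higher in both p53-/- libraries (log2 fold change 0.67, 0.47 and 0.68, adjusted p = 0.316, 0.315 and 0.375, quasi-likelihood test). Ascl2 and Rnf43 were lower in both (log2 fold change -0.82 and -0.48, adjusted p = 0.320 and 0.413), and Axin2 overlapped. With Olfm4, 4 of 7 markers were higher in both p53-/- libraries and 2 lower, against 26.4% and 24.4% of all tested genes. The 9 Paneth cell markers, of a cell type known as a source of EGF in the crypt, summed to 17018, 11738, 19403 and 23761 CPM. Of these, 7 were higher in both p53-/- libraries, against 26.4% of all tested genes. The quasi-likelihood test called 0 and DESeq2 called 3 higher, against 0.298% and 5.05%. Adipose markers were lower in p53-/-, at 37.6 and 63.3 CPM against 4.12 and 6.07. Of 5 tested genes, 2 were called lower by the quasi-likelihood test, against 0.193% of all tested genes. These were Car3 and Cfd, the latter named after its values were seen. Fabp4, the most abundant of the list, was not called (log2 fold change -1.57, adjusted p = 0.167). Markers of squamous epithelium summed to at most 3.09 CPM in any library.

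**Figure D4:**
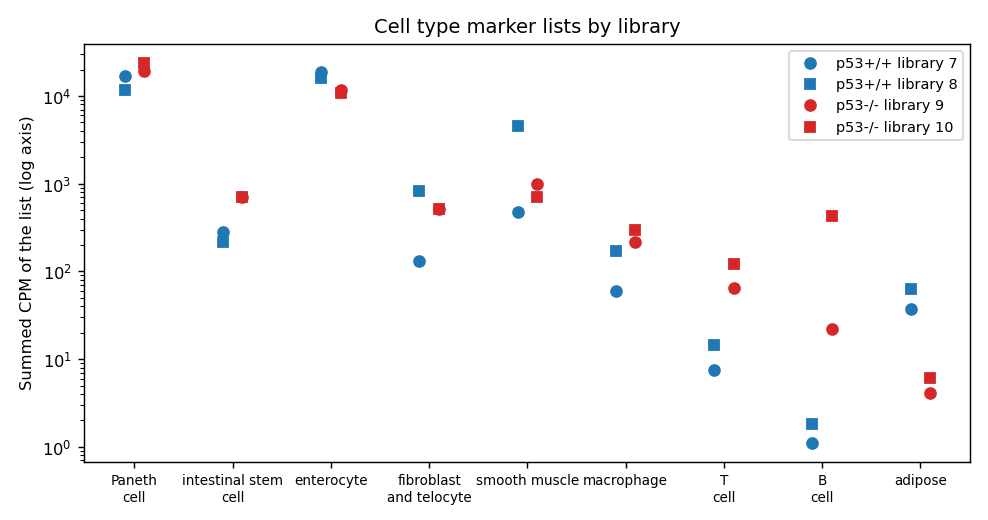
Summed CPM of the markers of each cell type list in the 4 libraries, on a log axis, with 1 point per library. Smooth muscle is highest in library 8 (4495 CPM), B cell markers are highest in library 10 (431 CPM), and T cell markers are higher in both p53-/- libraries.

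The rest of the family had few counts, and only Nrg2 and Nrg4 passed the filter and were tested. Erbb4, the fourth receptor, had 0 counts in all 4 libraries, which allows up to 3 counts in each. Nrg3 had 1, 3, 3 and 0 counts. Nrg2 had 15, 25, 58 and 28 counts (log2 fold change 0.63, adjusted p = 0.652) and Nrg4 had 27, 13, 24 and 9 (log2 fold change -0.74, adjusted p = 0.658), and for both the genotypes overlapped. The counts of the family thus lay almost entirely on the 10 members.

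Around the members, 83 further genes of the pathway were in the table and 80 were tested. These lists too were chosen with earlier results of these data known, so their counts beside the shares of all genes are a description. By the quasi-likelihood test 0 of the 80 passed, with 3 higher and 12 lower at an unadjusted p under 0.05, against 10% and 7.92% of all tested genes. DESeq2 called 0 higher and 9 lower, where it called 5.05% of all tested genes higher and 4.12% lower, and these shares are the background of the DESeq2 counts for each list below. Of the 13 genes that release ligands or control this step, DESeq2 called 2 lower. Frmd8, which holds the iRhom and ADAM17 complex at the cell surface, was at 150, 158, 93.3 and 89.0 CPM (log2 fold change -0.76, SE 0.16, adjusted p = 0.112, 0.000619 by DESeq2). The other, chosen here after its values were seen, was Rhbdf2, the gene of iRhom2, a partner of ADAM17, at 52.1, 54.5, 33.2 and 33.0 CPM (log2 fold change -0.69, adjusted p = 0.113, 0.0173 by DESeq2). Adam17, the main sheddase of Areg, Ereg, Tgfa and Hbegf and likewise named after its values were seen, was at 37.9, 35.3, 46.3 and 56.8 CPM, a log2 fold change of 0.49 (adjusted p = 0.231). Adam19 had 32, 200, 345 and 476 counts, a log2 fold change of 1.38 (SE 0.82, adjusted p = 0.458), with library 7 far below the rest.

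Of 26 adaptors and kinases that carry the signal inward, DESeq2 called 2 lower, a count near the background of 4.12%, and their median log2 fold change was -0.09. Map2k2, the gene of the ERK kinase MEK2, was at 443, 284, 216 and 205 CPM (log2 fold change -0.79, SE 0.27, adjusted p = 0.222 by the quasi-likelihood test and 0.0286 by DESeq2). Src, a tyrosine kinase recruited by EGFR, was at 359, 254, 201 and 159 CPM (log2 fold change -0.76, SE 0.25, adjusted p = 0.216 and 0.0304). In both genes library 7 was the highest, as in Tgfa and Egfr and unlike in Areg and Ereg.

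The inhibitors of the pathway comprise genes that receptor signalling is known to induce, such as Errfi1 and Dusp5, and others, such as the ubiquitin ligase gene Cbl, that are not known for induction. Of 21 tested, DESeq2 called 3 lower and 0 higher, against 4.12% and 5.05% of all tested genes. At an unadjusted p under 0.05 there were 3 lower and 2 higher, the latter Cbl and Ptpn1, and the median log2 fold change was -0.24. Errfi1, the gene of MIG6, which binds and inhibits the EGFR kinase, was at 95.4, 201, 29.1 and 41.1 CPM. Its log2 fold change was -2.08 (SE 0.40, adjusted p = 0.103 by the quasi-likelihood test and 1.00e-05 by DESeq2), and from -2.51 to -1.45 without each library. Dusp5, a nuclear ERK phosphatase, was at 33.9, 55.9, 14.1 and 22.04 CPM (log2 fold change -1.31, SE 0.34, adjusted p = 0.152 and 0.0116). Both genes had the order of libraries seen in Areg, with library 8 highest and library 9 lowest.

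The 18 ERK response genes are transcription factors and other genes induced early after ERK activation. Their median log2 fold change was -0.77, with 14 of 18 below 0 against 8165 of 16094 tested genes. There were 4 lower at an unadjusted p under 0.05, against 7.92% of all tested genes, and 2 called lower by DESeq2, against 4.12%. Without library 8 the median was -0.20, and without libraries 7, 9 and 10 it was -1.07, -0.42 and -0.94, so its size rested largely on library 8. Etv4, an ETS factor downstream of ERK, was at 14.2, 9.15, 1.45 and 1.14 CPM, a log2 fold change of -3.17 (SE 0.43, adjusted p = 0.0569 by the quasi-likelihood test and 1.43e-07 by DESeq2) that ran from -3.45 to -2.80 without each library. Atf3, a stress-induced factor, was at 59.4, 270, 42.5 and 56.7 CPM, a log2 fold change of -1.73 (SE 0.68, adjusted p = 0.274). Library 8 set most of the value for Atf3, which was -0.27 without it, whereas Etv4 was higher in library 7 than in library 8.

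**Figure D5:**
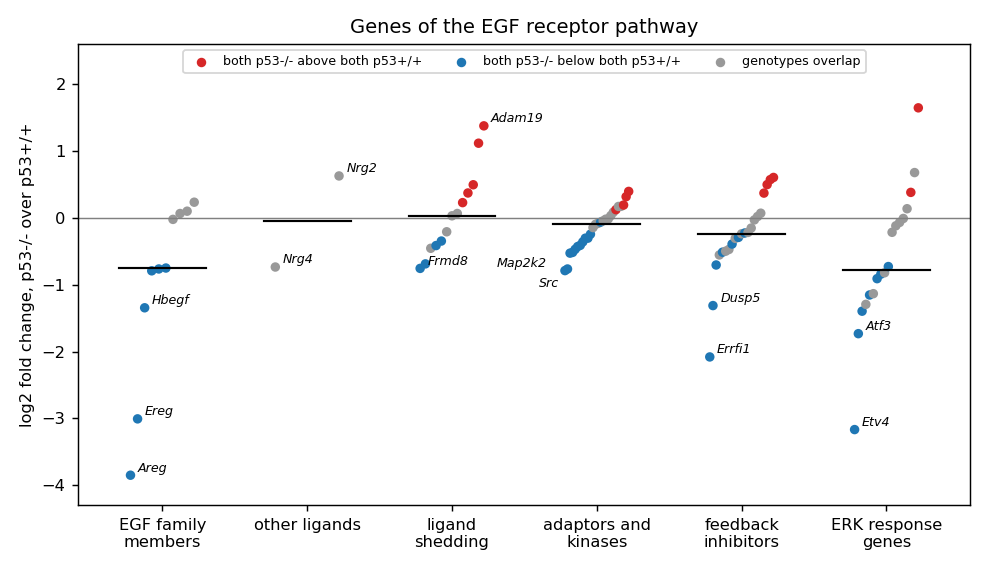
Log2 fold change, p53-/- over p53+/+, of the 10 members and of 80 tested pathway genes by list, with 1 point per gene, colored by whether the genotypes overlap, and a line at each list's median. Areg, Ereg, Etv4 and Errfi1 are the lowest points, and the medians run from -0.77 for ERK response genes to 0.03 for ligand shedding.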

How the data were processed

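For 4 mouse SI libraries the authors deposited gene-level read counts that had not been normalized. The submitters' processing notes name fastp, HISAT2 2.0.5, featureCounts 1.5.0-p3 and DESeq2 1.20.0, and the genome build, annotation and strand setting are not given in the sources used here, so overlapping genes could share reads. The study's methods call its data points biological replicates, while the labels name no animals, so p-values measure the spread between these libraries. Libraries of a genotype differed by far more than sampling noise (chi-square per degree of freedom 52.8 in p53+/+ and 77.3 in p53-/-).

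The deposited counts were scaled by TMM, filtered with filterByExpr and tested two-sided with edgeR 4.0.16 (quasi-likelihood, Benjamini-Hochberg over 16094 genes, threshold 0.05) in R 4.3.3, with DESeq2 1.42.0 as an alternative. On simulated data with known changes, DESeq2 recovered more changed genes than the quasi-likelihood test and made many more false calls, and the quasi-likelihood test missed nearly all of the smallest changes, so calls by DESeq2 alone are the less certain. CPM uses TMM-scaled totals, and TPM uses summed exon lengths of GENCODE M21, which holds 91.9% of the gene identifiers. Intervals are 95% intervals of the fit, and a count of 0 allows 3 counts, for counting error only. Alternatives were RLE factors, library size only, a likelihood ratio test in edgeR, a minimum of 10 counts per library in place of the filter, no filter, a threshold of 0.01 and each library left out, and, added after seeing the data, the ribosomal RNA row left out. The members and lists were chosen with earlier results of these data known. Named are all members, the rest of the family, genotype checks and the 3 genes nearest to Ereg. Of each pathway list the 2 genes with the largest absolute log2 fold change at an average log2 CPM of at least 1 are named. The 2 most abundant markers are named only for stem cells (Olfm4 and Axin2) and adipose tissue (Fabp4 and Car3). The other marker lists are given as sums or counts of genes. Others are said to be named after their values were seen.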

Additional observations from a re-analysis of the deposited data

How the results depend on the processing

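Members called lower numbered 0 by the quasi-likelihood test, 3 by DESeq2, 2 by edgeR's likelihood ratio test, 5 with no filter and 0 to 2 without each library, and 0 were called higher under any of these. Pathway genes called lower numbered 0, and 9, 5, 14 and 0 to 6 in the same order. Those called higher numbered 0, except 3 with no filter and 0 to 1 without each library. Over all genes 48 were called higher and 31 lower. The numbers were 812 and 663 by DESeq2, 1433 and 761 with no filter, 833 and 462 by the likelihood ratio test, 26 and 20 with library size only, 24 and 18 with at least 10 counts, 4 and 2 at a threshold of 0.01, and 0 to 680 and 0 to 344 without each library. The signs that turned were those of members near 0. Erbb2 was at 0.0456 with at least 10 counts, 0.0420 with library size only, 0.0207 with no filter and 0.0195 without the ribosomal RNA row, and -0.24 to 0.22 without each library. The ranges without each library were -0.26 to 0.43 for Erbb3, -0.53 to 1.11 for Nrg1 and -0.51 to 1.90 for Egf. The cause was not tested. Egf was not tested with at least 10 counts in every library. Of 109 values of members under alternatives, 83 kept their direction and side of the threshold, 14 passed it newly and 12 turned. Where 1 library was left out, the lone library of its genotype is assumed to vary like the other genotype. No paired analysis was possible because the columns carry none of the labels' replicate numbers. With 2 libraries per genotype, intervals are wide.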
